A study of Oryza sativa with 4 samples.

Results

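NAS1, NAAT1 and MT1B are 3 rice genes of metal handling, and their signal was followed across shoots of seedlings held under water. They were selected on the genotype and time differences that these same 4 arrays had given earlier, so their values are a description and carry no test. They were found by name or gene number among 17905 genes with a probe set (a group of short probes read as 1 value). Each has 1 probe set of its own, so 3 of the 57381 probe sets on the array are described first. All 3 genes were among the 15426 that reached a level floor, the median of all values (log2 signal 5.51), on at least 1 array.

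The study used 18-day-old rice seedlings (Oryza sativa) raised in soil and then completely submerged in a greenhouse. M202 is a japonica cultivar that tolerates flooding poorly, and M202(Sub1) is the same cultivar carrying the introgressed Sub1 submergence tolerance locus. Shoots were taken from M202(Sub1) after 6 days, M202 after 6 days, M202(Sub1) after 1 day and M202 after 1 day, with 1 Affymetrix array for each of these 4 groups. No unsubmerged plants were compared, how many plants went into a sample is not given in the labels, and Sub1 was represented by a single line. With 1 array per group no spread can be given for any value, and anything else that differed between the harvests or lines cannot be told apart from time or Sub1. The number of arrays limits the precision of every difference.

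Nicotianamine is a small metal chelator that plants build from S-adenosylmethionine and use to carry iron, zinc and copper between cells and along the phloem. In grasses it is also the precursor of deoxymugineic acid, a phytosiderophore released by roots to take up iron. NAS1 encodes a nicotianamine synthase, NAAT1 encodes the aminotransferase that turns nicotianamine toward deoxymugineic acid, and MT1B encodes a metallothionein, a small protein that binds metals through cysteines. NAS1 and MT1B (LOC4332608 and LOC4332487) lie on chromosome 3 and NAAT1 (LOC9267778) lies on chromosome 2 in the rice RefSeq assembly ASM3414082v1.

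The arrays had similar overall levels, with median log2 signals from 5.48 to 5.53. Of 7 photosynthesis genes measured, which mark green shoot, 6 were above the floor on all 4 arrays with values from 11.34 to 14.32. Of 5 genes known for roots, 2 were under the floor on every array and the highest value was 8.13. As a sign of RNA quality, the 3' minus 5' log2 signal was 2.52 in M202(Sub1) and 2.36 in M202 at 6 days, and 2.31 and 2.26 at 1 day, for the actin control. For the GAPDH control it was 0.81 in M202(Sub1) and 0.79 in M202 at 6 days, and 0.60 and 0.68 at 1 day. Its part in the results below was not tested.

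The direction of the NAS1 genotype difference depended on the day, with at least 2-fold on each. At 6 days it had a log2 signal of 3.36 in M202(Sub1), against 5.99 in M202. At 1 day it had 7.06 in M202(Sub1), against 5.51 in M202. The M202(Sub1) arrays thus gave both the lowest and the highest of the 4 values, and the M202 arrays lay between them. The genotype difference, M202(Sub1) minus M202, was -2.63 at 6 days, a 6.20-fold lower signal, and 1.55 at 1 day, a 2.93-fold higher signal. The 3.36 lies under the floor, where signal is near background, and the M202 value at 1 day lies just under it, so the sizes of these differences are uncertain. Because whole shoots were used, fewer cells of a type and less RNA per cell cannot be told apart here.

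Over time, NAS1 moved in M202(Sub1) and little in M202. The 6-day array was lower than the 1-day array by a log2 difference of -3.70 in M202(Sub1), which is 13.0-fold. In M202 the same difference was 0.48, or 1.40-fold. The difference between these time differences, M202(Sub1) minus M202, was -4.18. Among the 15426 genes above the floor, 3 including NAS1 itself had a value this low or lower. NAS1 was above the floor on 2 of the 4 arrays. The same caution holds for its time differences, which rest on the same values.

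NAAT1 was higher at 6 days in both genotypes, and its genotype differences were under 2-fold and of opposite sign on the 2 days. Its log2 signal was 11.19 in M202(Sub1) and 11.72 in M202 at 6 days. At 1 day it was 8.58 in M202(Sub1) and 8.03 in M202. Both 6-day arrays were thus above both 1-day arrays, and all 4 values were above the floor. The time difference was 2.61 in M202(Sub1), or 6.10-fold, and 3.69 in M202, or 12.9-fold. In M202, 41 of the 15426 genes had a difference as high or higher, and in M202(Sub1) 199 had. The genotype difference was -0.53 at 6 days and 0.55 at 1 day, both under 2-fold, and the difference between time differences was -1.09. Of the 15426 genes, 1207 were as low or lower at 6 days and 379 as high or higher at 1 day. For the difference between time differences, 193 were as low or lower.

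MT1B gave a weaker signal in the M202(Sub1) shoots at each time and a stronger one at 6 days in both genotypes. Its log2 signal was 8.93 in M202(Sub1), against 11.13 in M202, at 6 days. At 1 day it was 7.30 in M202(Sub1), against 8.90 in M202. The order of levels was therefore M202 at 6 days, then M202(Sub1) at 6 days and M202 at 1 day, which were 0.03 apart, and last M202(Sub1) at 1 day. The genotype difference was -2.20 at 6 days, or 4.59-fold, and -1.60 at 1 day, or 3.03-fold. The time difference was 1.63 in M202(Sub1), or 3.10-fold, and 2.23 in M202, or 4.70-fold. The difference between time differences was -0.60.

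**Figure D1:**
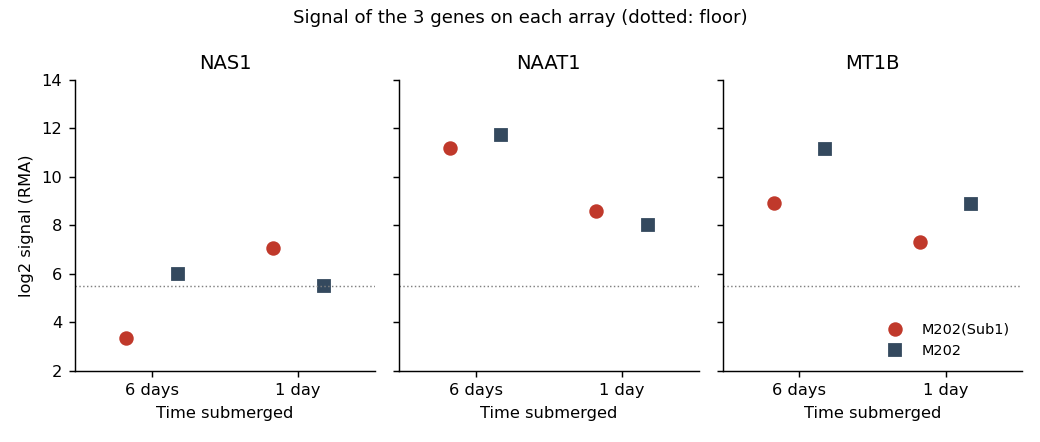
Log2 signal (vertical axis) of NAS1, NAAT1 and MT1B on the single array of each group, by time submerged (horizontal axis), with circles for M202(Sub1), squares for M202 and a dotted line at the floor of 5.51. NAS1 changes sides between the days, NAAT1 is higher at 6 days in both genotypes, and MT1B is lower in M202(Sub1) at each time.

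The 3 genes can be set beside the background of all genes above the floor. For the genotype difference at 6 days 2 of the 3 genes, NAS1 and MT1B, were at least 2-fold apart, where 6.03% of all genes were. At 1 day the same 2 genes were at least 2-fold apart, against 1.79% of all genes. For the time difference all 3 genes were at least 2-fold apart in M202(Sub1), against 10.9% of all genes, and 2 of the 3, NAAT1 and MT1B, in M202, against 16.1%. For the difference between time differences, 2 of the 3 genes, NAS1 and NAAT1, were at least 2-fold apart, both on the low side, where 5.8% of all genes were apart and 1.59% low. NAAT1 and MT1B were among the 4.83% of genes at least 2-fold higher at 6 days in both genotypes. MT1B was 1 of 49 genes at least 2-fold lower in M202(Sub1) at both times (0.318% of genes). NAS1 was 1 of 8 genes on the high side of 2-fold at 1 day and on the low side at 6 days (0.0519%). Since the genes were chosen with these differences known, nothing is read from the counts.

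The other genes of nicotianamine synthesis did not share 1 pattern. NAS2, a second nicotianamine synthase gene that lies next to NAS1 with no annotated gene between them, had the same signs as NAS1 in every difference, with smaller sizes. NAS2 was at 5.10 in M202(Sub1) and 5.51 in M202 at 6 days, and at 6.51 in M202(Sub1) and 5.39 in M202 at 1 day. It was thus above the floor on the M202(Sub1) array at 1 day and below it on the other 3. Each NAS2 difference therefore rests on that array or on values under the floor alone. Its genotype difference was -0.42 at 6 days and 1.12 at 1 day, and its time difference was -1.42 in M202(Sub1) and 0.12 in M202. NAS1 and NAS2 are similar in sequence, and whether the probes of one also bind transcripts of the other was not examined. NAS3, the nicotianamine synthase gene known for expression in rice leaves, had genotype differences of -0.04 at 6 days and -0.74 at 1 day. Its signal was 9.46 in M202(Sub1) and 9.50 in M202 at 6 days, and 9.75 in M202(Sub1) and 10.50 in M202 at 1 day. Its time difference was -0.30 in M202(Sub1) and just under 2-fold in M202.

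The methionine cycle supplies and recycles the substrate of nicotianamine synthase. None of its 8 measured genes was at least 2-fold apart between genotypes, where 6.03% of all genes were at 6 days and 1.79% at 1 day, so a count of 0 in so short a list is no result about it. At 6 days their median genotype difference was -0.18, with values from -0.34 (ARD4, an acireductone dioxygenase) to 0.13 (SAM2, an S-adenosylmethionine synthetase). At 1 day it was 0.00, with values from -0.57 (IDI2) to 0.14 (ARD1). Over time, 1 of the 8 was at least 2-fold lower in each genotype, against 4.61% of all genes in M202(Sub1) and 8.62% in M202. This count too is no result about the list. The gene was ARD1 (LOC4348646), at -1.23 in M202(Sub1) and -1.14 in M202. The annotation gives this gene names of both an acireductone dioxygenase and a heat shock factor. Its second, weaker probe set had differences of the opposite sign, 1.17 in M202(Sub1) and 0.47 in M202. ARD2, which bears heat shock factor names too (HSFA2D), had a genotype difference of -0.26 at 6 days, but its weaker probe set gave 1.33.

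Yellow stripe-like (YSL) proteins carry metals bound to nicotianamine or phytosiderophores across membranes. Of 15 measured YSL genes, 8 were above the floor, and none of these was at least 2-fold apart between genotypes, a count that the same shares of all genes make uninformative for 8 genes. Over time, 1 of the 8 was at least 2-fold higher in both genotypes, against 4.83% of all genes. A count of 1 in so short a list is no result about it. The gene was YSL13. Its signal was 9.86 in M202(Sub1) and 10.57 in M202 at 6 days, and 7.57 in M202(Sub1) and 7.93 in M202 at 1 day. The time difference was 2.29 in M202(Sub1) and 2.64 in M202, so both 6-day arrays were above both 1-day arrays, as for NAAT1. At the other end, YSL16, a carrier of copper bound to nicotianamine, had time differences of -0.94 in M202(Sub1) and -0.95 in M202. The median time difference of the 8 genes was 0.09 in M202(Sub1) and -0.11 in M202, against 0.01 and -0.02 for all genes. YSL9 (0.57) and YSL12 (-0.58) bounded the differences between time differences.

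**Figure D2:**
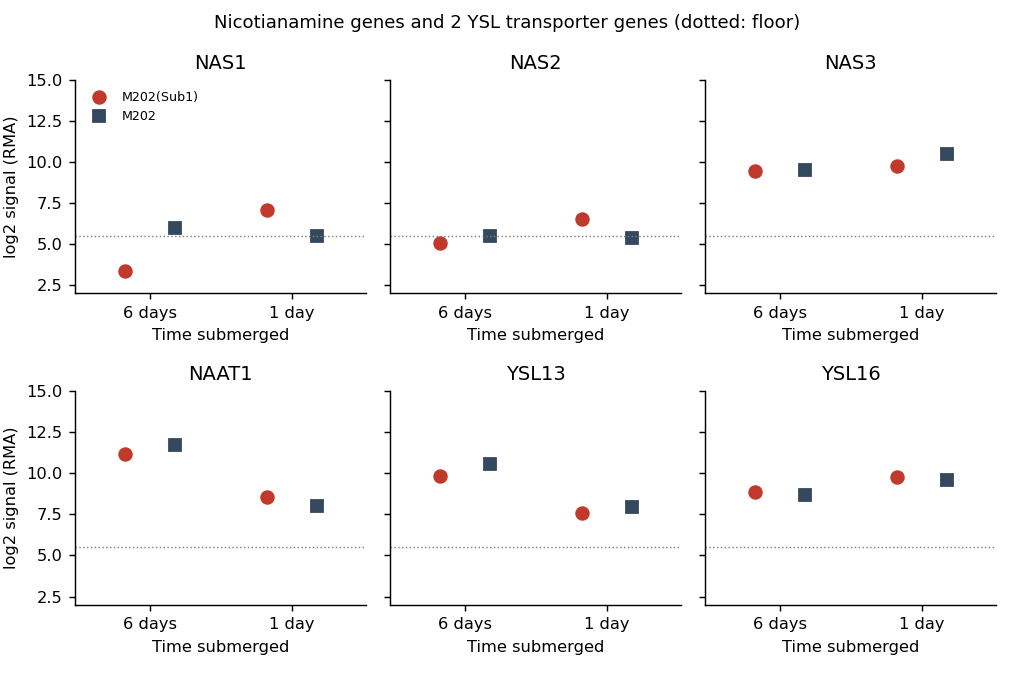
Log2 signal (vertical axis) of the genes NAS1, NAS2, NAS3, NAAT1, YSL13 and YSL16 on the single array of each group, by time submerged (horizontal axis), with circles for M202(Sub1), squares for M202 and a dotted line at the floor. NAS2 follows the signs of NAS1 nearer to the floor, and NAAT1 and YSL13 are higher at 6 days in both genotypes.

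Regulators and storage genes of iron were few in the annotation used. IRO3, a transcription factor of the iron deficiency response, had genotype differences of 0.22 at 6 days and 0.60 at 1 day. IDEF1, another such regulator, had 0.02 at 6 days and 0.13 at 1 day. For the vacuolar iron transporter genes VIT2 and VIT1, the genotype difference at 6 days was -0.78 for VIT2 and 0.00 for VIT1. At 1 day VIT2 was at 8.73 in M202(Sub1), against 9.95 in M202, a difference of -1.22, and VIT1 differed by 0.01. VIT1 was lower at 6 days by a similar amount in both genotypes, -1.16 in M202(Sub1) and -1.16 in M202. VIT2 had time differences of 1.00 in M202(Sub1), just under 2-fold, and 0.56 in M202.

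Among the ZIP, NRAMP, HMA, MTP and copper transporter genes, 22 of 28 measured were above the floor. At 6 days 1 of the 22 was at least 2-fold apart between genotypes, against 6.03% of all genes, a count near the background. The gene was ZIP1, a metal transporter of the ZIP family, at 7.23 in M202(Sub1) against 8.27 in M202. At 1 day ZIP1 was at 8.28 in M202(Sub1) and 8.16 in M202, so its time difference was -1.05 in M202(Sub1) and 0.11 in M202. Of the 22 genes, 18 lay below 0 for the genotype difference at 6 days, with a median of -0.30 against 0.00 for all genes, and values up to 0.17 (MTP3). At 1 day 13 lay below 0, with a median of -0.07, against -0.01 for all genes, and values from -0.62 (NRAMP2) to 0.75 (MTP7). The share of all genes below 0 is not given here.

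Over time, 2 of these transporter genes in M202(Sub1) and 3 in M202 passed 2-fold upward, of 22, against 6.25% of all genes in M202(Sub1) and 7.44% in M202. These counts are near the background. MTP5, of the cation diffusion facilitator family, had time differences of 1.17 in M202(Sub1) and 1.04 in M202. ZIP4, a zinc transporter gene, had 1.16 in M202(Sub1) and 1.33 in M202. For ZIP8, also of the ZIP family, the time difference was 0.63 in M202(Sub1) and 1.31 in M202. NRAMP5, the manganese transporter known for uptake in rice roots, was lower, by -1.06 in M202 and by just under 2-fold in M202(Sub1). The iron transporter gene IRT1 had a time difference of -0.04 in M202(Sub1) and just under 2-fold in M202, and its difference between time differences was -1.04. For that difference NRAMP1 had the largest value of the 22 genes (0.30) and ZIP1 the smallest (-1.16).

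Genotype differences varied among the metallothioneins measured. Of 7 metallothionein genes, only MT1B, chosen on this difference, was at least 2-fold lower in M202(Sub1), at 6 days and at 1 day alike. Of all genes, 2.18% were that low at 6 days and 1.01% at 1 day. A count of 0 among the other 6 is therefore no result about them. The other 6 had genotype differences from -0.10 (MT2B) to 0.79 (MT2C) at 6 days. At 1 day they ranged from -0.97 (MT2C), just under 2-fold and of the same sign as MT1B, to 1.20 (MT4C). At 6 days MT4A, the gene with the largest time difference in M202(Sub1) among the 7, had a genotype difference of 0.79, opposite in sign to MT1B. Without MT1B, which was chosen on these values, 6 of 6 time differences lay above 0 in M202(Sub1) and 5 of 6 in M202. The share of all genes above 0 is not given here, so nothing is read from these counts.

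MT4A was at 13.68 in M202(Sub1) and 12.89 in M202 at 6 days, and at 11.97 in M202(Sub1) and 11.57 in M202 at 1 day. Its time difference was 1.71 in M202(Sub1) and 1.32 in M202. MT4C was at 11.05 in M202(Sub1) and 10.89 in M202 at 6 days, and at 10.97 in M202(Sub1) and 9.76 in M202 at 1 day. The low array of MT4C was thus the M202 array at 1 day, and its time difference was 0.09 in M202(Sub1) and 1.12 in M202. MT2C, also named MT2b and known as a scavenger of reactive oxygen in rice, was at 13.07 in M202(Sub1) and 12.28 in M202 at 6 days. At 1 day it was at 11.79 in M202(Sub1) and 12.77 in M202. Its time difference was 1.28 in M202(Sub1) and -0.49 in M202, and its difference between time differences was 1.76, opposite in sign to that of NAS1. All 5 probe sets of MT2C had this sign, from 1.29 to 1.76. Metallothionein transcripts are short and alike, and 3 of these 5 sets have names that mark possible cross-hybridisation. MT1A, MT2A and MT2B were less than 2-fold apart in all 5 differences.

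**Figure D3:**
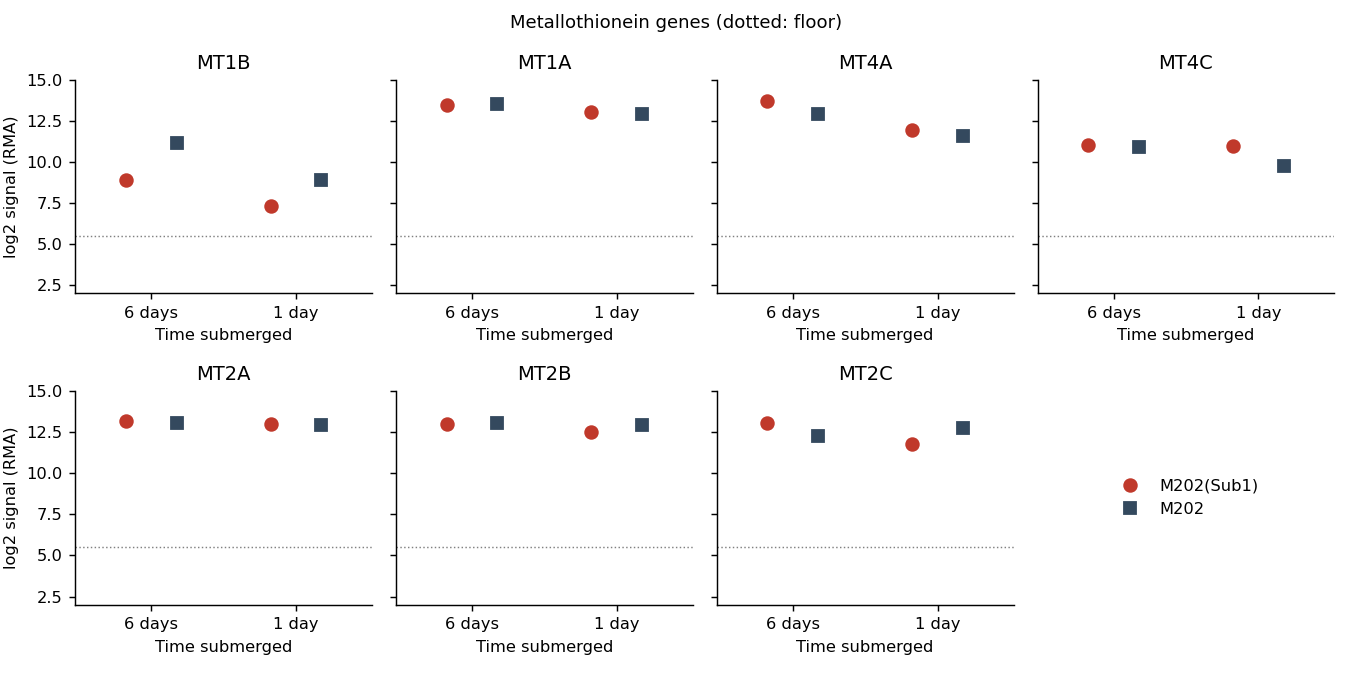
Log2 signal (vertical axis) of the 7 measured metallothionein genes on the single array of each group, by time submerged (horizontal axis), with circles for M202(Sub1), squares for M202 and a dotted line at the floor. MT1B is lower in M202(Sub1) at both times, and MT2C changes sides between 6 days and 1 day.

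Superoxide dismutases carry copper, zinc or manganese, and copper chaperones load the copper and zinc forms. The 6 genes of this list were within 0.31 of 0 in both genotype differences, from -0.16 (SODCC1) to 0.22 (SODA) at 6 days and from -0.31 (CCS1) to 0.25 (SODCC2) at 1 day. SODCP, the plastid copper and zinc form, was lower at 6 days, by -1.04 in M202(Sub1) and -1.19 in M202.

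Over all 8 lists, 69 genes other than NAS1, NAAT1 and MT1B were measured, and 56 of them were above the floor. For the genotype difference at 6 days none of the 56 passed 2-fold upward and 1 did so downward, against 3.85% and 2.18% of all genes. At 1 day 2 were higher (NAS2 and MT4C) and 1 was lower (VIT2), against 0.778% and 1.01%. Over time 5 were higher and 5 lower in M202(Sub1), against 6.25% and 4.61% of all genes. In M202 6 were higher and 4 lower, against 7.44% and 8.62%. For the difference between time differences 1 was higher (MT2C) and 4 were lower (NAS2, ZIP1, IRT1 and MT4C), against 4.2% and 1.59%. NAS2 reached the floor only on the M202(Sub1) array at 1 day, so its 2-fold calls rest on the array that let it pass. The 13 genes under the floor on every array had no difference of 2-fold or more.

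**Figure D4:**
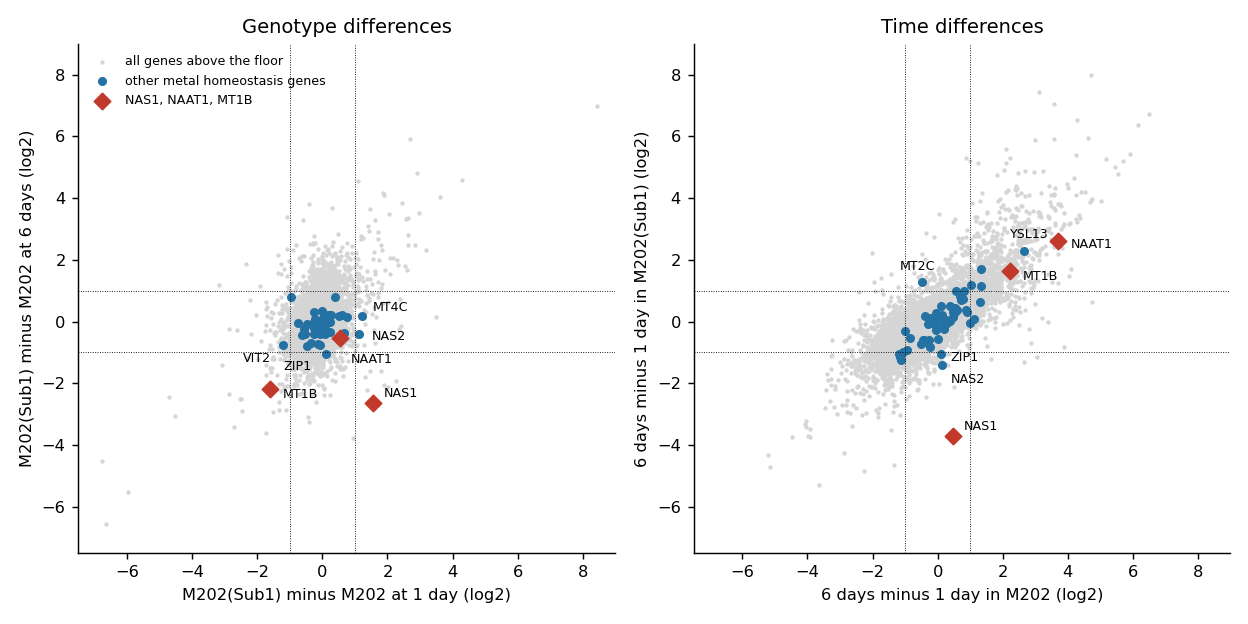
Log2 genotype differences, M202(Sub1) minus M202, at 6 days against those at 1 day (left), and time differences, 6 days minus 1 day, in M202(Sub1) against those in M202 (right). Each point is a gene, in grey for the 15426 genes above the floor, blue for the 56 other metal homeostasis genes and red diamonds for NAS1, NAAT1 and MT1B, with dotted lines at 2-fold, and NAS1 is the lowest of the coloured points in each panel, at -2.63 on the left and -3.70 on the right.

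The genes whose 4 values ran most like each of the 3 were found by the distance between log2 profiles centred on their own mean, over 4 arrays and 2202 genes above the floor with an informative name. No gene came close to NAS1. The nearest was the ammonium transporter gene AMT3-3 at a distance of 1.57, followed by the peroxidase gene PRX74, OsPIN5a of the auxin efflux family, OsCASPL1U3 and the nitrate transport partner NAR2.2 (1.80). Each of these 5 was lower in M202(Sub1) at 6 days, by -0.96 (AMT3-3) to -2.04 (OsCASPL1U3), and AMT3-3 alone had a genotype difference above 0 at 1 day (0.09). They were picked for closeness to the NAS1 values, so the shared direction at 6 days is no separate result. Of all genes above the floor, none lay within a distance of 1 of NAS1.

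NAAT1 had many close profiles, with 100 genes within a distance of 1. The nearest were the transcription factor genes BZIP52 (0.36) and HSF05 (0.38), the lipoxygenase gene CM-LOX2 (0.43), NAC45 (0.57) and the hexokinase gene HXK6 (0.67). HSF05, a heat shock factor gene, also changed sides between the days, with genotype differences of -0.57 at 6 days and 0.58 at 1 day. MT1B had 12 genes within this distance. The nearest named ones were the dehydrin gene RAB21 (0.95), the ammonium transporter gene AMT3-2 (1.08), MFT1 (1.14) and the oxophytodienoate reductase family genes OPR-1 (1.20) and OPR10 (1.20). RAB21 was at 7.30 in M202(Sub1) and 8.68 in M202 at 6 days, and at 6.17 in M202(Sub1) and 7.07 in M202 at 1 day. The genes near NAAT1 and MT1B, HSF05 included, were also picked by closeness, so directions they share are no separate result.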

How the data were processed

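Shoot RNA of 4 groups was measured on 1-colour Affymetrix rice arrays, 1 array per group. The submitters' processing notes name RMA as the tool behind the log2 values the authors deposited; its version is not given in the sources used here. This method forces arrays to a common distribution and compresses differences near background, so an overall shift in RNA amount would not show. Groups came from the sample titles. Probe sets were named through the platform annotation and RefSeq names of ASM3414082v1, which was used for names and gene order only. A gene stands for its probe set with the highest mean. Genes were kept if their top array was at or over the 50th percentile of the table.

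Differences are log2, M202(Sub1) minus M202 and 6 days minus 1 day, and were counted at 2-fold. No test was made. The 3 genes and the 8 metal homeostasis lists were chosen with earlier results of these data known. Lists are symbol patterns, and synonyms tom1 and tom2 were dropped after their values were seen because the names did not establish a metal transporter. Cysteine synthase genes named rcs were taken off the root list. The text names each list's extremes and its 2-fold members, and the 5 nearest profiles of each gene. Alternatives were the mean of all probe sets, no possibly cross-hybridising sets, median centring, quantile normalization, other floors and a 4-fold threshold. The calculations were tested on simulated data. Python 3.11.15, numpy 2.4.6 and pandas 2.3.3 were used. No sequences were used here.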

Additional observations from a re-analysis of the deposited data

Results flagged for a closer look

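Opposite signs in the 2 genotypes or on the 2 days are listed here for NAS1 and NAAT1, and for genes of the metal lists where at least 1 of the opposite differences reached 2-fold, which gave NAS2, ZIP1 and MT2C. IRT1, with a difference between time differences of -1.04, was left out because its time difference in M202 was just under 2-fold, and other genes changed sign by smaller amounts. Whether the difference is real was not tested, since no group was replicated. NAS1 had the widest gap, with a difference between time differences of -4.18 (-3.70 in M202(Sub1) and 0.48 in M202), and genotype differences of -2.63 at 6 days and 1.55 at 1 day. Its neighbour NAS2 had -1.54. NAAT1 had -1.09, with genotype differences under 2-fold. ZIP1 had -1.16, and MT2C had 1.76, with time differences of opposite sign.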

How the results depend on the processing

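The 15 values of NAS1, NAAT1 and MT1B kept their sign and their side of 2-fold in all 60 recalculations (mean of all probe sets, no possibly cross-hybridising sets, median centring, quantile normalization), with a largest move of 0.07. Each of the 3 genes has 1 probe set, so the first 2 of these could not alter it. The deposited RMA values already had similar distributions, so the last 2 could move them little. Of 70 recalculated counts over all genes and over the metal lists, 61 stayed within 1.5 times. The other 9 came from the 4-fold threshold, which is stricter by construction. It left 132 genes for the genotype difference at 6 days and 47 at 1 day, 423 for the time difference in M202(Sub1) and 517 in M202, and 108 for the difference between time differences. The metal lists, with NAS1, NAAT1 and MT1B beside the 56 others above the floor, then held 2 genes for genotype at 6 days and 0 at 1 day. They held 3 for time in each genotype and 1 for the difference between time differences. At 2-fold these counts were 3, 5, 13 in M202(Sub1), 12 in M202 and 7. The shares of all genes at 2-fold were 6.03%, 1.79%, 10.9%, 16.1% and 5.8%. Besides the 3 chosen genes only YSL13 passed 4-fold, for time in each genotype. The counts include genes chosen on these values, so nothing is read from them. No paired analysis was possible because each group has 1 array, and no array could be left out. Values under the floor of 5.51 limit NAS1 and NAS2.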

Other observations

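NAS1 and 7 other genes above the floor were on the low side of 2-fold in M202(Sub1) at 6 days and on the high side at 1 day. The named others were PBZ1, a pathogenesis-related gene, and CYP71Z7 and CPS2 of diterpenoid phytoalexin synthesis. In M202(Sub1) the time differences of these 7 lay between -1.30 and 0.63, where NAS1 had -3.70. In M202 they lay between 2.64 and 4.75, where NAS1 had 0.48. Both ends of the M202 range rest on 1-day values under the floor (CPS2 at 3.48 and LOC4349113 at 4.34), so their sizes are uncertain. These genes were picked by that pattern after the values were seen, and each time difference shares arrays with the genotype differences.

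The gene order around NAS1 and MT1B, taken from the RefSeq assembly, puts 86 genes above the floor between them on chromosome 3. NAS2, next to NAS1, had the same signs, but it reached the floor only on the M202(Sub1) array at 1 day. Binding of its probes to NAS1 transcripts was not examined, so nothing is read from the shared signs. GEP, on the other side of NAS2, had genotype differences of -0.39 at 6 days and -0.19 at 1 day. Of the 100 genes nearest to NAS1, 12 were at least 2-fold apart between genotypes at 6 days and 2 at 1 day, where 6.03% and 1.79% of all genes were. The 100 nearest to MT1B gave 12 at 6 days and 3 at 1 day. The 100 nearest to NAAT1 on chromosome 2 gave 4 at 6 days and 1 at 1 day. For the time difference, 10.9% of all genes were at least 2-fold apart in M202(Sub1) and 16.1% in M202. The genes nearest to NAS1 gave 20 in M202(Sub1) and 25 in M202. Those nearest to MT1B gave 15 and 25, and those nearest to NAAT1 gave 14 and 18. The windows around NAS1 and MT1B share 14 genes. Beside MT1B, the gene OsPDIL5-1 had genotype differences of 0.15 at 6 days and 0.18 at 1 day. On the other side of MT1B, LOC4332488 had -0.73 at 6 days and -0.31 at 1 day, of the same sign as MT1B. LOC4332482, picked after its values were seen, had -1.25 at 6 days and -1.19 at 1 day.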
